A study of Mus musculus with 3 samples.

Results

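The genes described here are 47 genes of the DNA replication machinery, found by their symbols among the 27998 genes of the deposited matrix. They were chosen for what their proteins do and not by a rule on their values, though earlier results of these data were known. Each symbol matched 1 row. The single-cell libraries came from YFP (+) cells sorted from the lumbar spinal cord of young adult C57BL/6 mice carrying 1 Cx3cr1-creER-yfp allele (Cx3cr1-creER-yfp/+), an allele that labels cells expressing the fractalkine receptor gene Cx3cr1. The 3 groups were naive mice, mice 24 h and mice 48 h after sciatic nerve injury (transection and ligation), and each is 1 library without replicates, made from the cords of 3 pooled animals as the methods state. Cells of the joined matrix differ in a barcode suffix of 1, 2 or 3, and no label ties a suffix to a group. The cells are therefore called those of library 1, 2 and 3, none of which is given a time point, and neither the injury nor the time can be read from a difference between them. No test was made, because cells are not replicates. Intervals are exact 95% Poisson or binomial (Clopper-Pearson) intervals that hold counting error alone and leave out the spread among animals.

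DNA is copied once per cell cycle. In G1 phase the origin recognition complex, CDC6 and CDT1 load the MCM2-7 helicase onto origins, a step called licensing, and geminin (encoded by Gmnn) blocks CDT1 after S phase starts. CDC45 and the GINS complex then join the helicase to form the active CMG helicase, RPA covers the single-stranded DNA, primase and DNA polymerases alpha, delta and epsilon build the new strands, the sliding clamp PCNA (placed by the RFC loader) holds the polymerases on DNA, and FEN1 and DNA ligase 1 seal the lagging strand. Many of these genes are known targets of the E2F transcription factors, which are released at the passage from G1 to S phase. Microglia, the resident macrophages of the central nervous system, divide rarely in the undisturbed adult and proliferate in the spinal cord after peripheral nerve injury.

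Library 1 held 609 cells with a median of 2218 UMIs (unique molecular identifiers, each standing for 1 counted transcript), library 2 held 3591 cells with 5952 and library 3 held 3322 cells with 5742. All cells had UMIs of at least 3 of 9 microglia markers, and the summed level of these markers was 21473 to 26082 CPM. The marker lists of 8 other cell types summed to between 0 and 35.0 CPM per list and library, and 1 cell, of library 2, had UMIs of at least 3 markers of such a list (neutrophils). Some lists could not give such a cell, as those of red blood cells (2 markers) and endothelial cells (3 markers, of which Cldn5 had no UMI). Cd163, Lyve1, Cd3e, Ly6g and Cldn5 were at 0, while the highest levels were those of Pecam1 (14.8 to 35.0 CPM) and Mbp (15.2 to 22.3 CPM). The lymphocyte list differed between the libraries, with 0, 297 and 9 UMIs in libraries 1, 2 and 3, and Gzma (225 UMIs) and Nkg7 (68 UMIs) held most of those of library 2. Gzma was found in 4.04% and Nkg7 in 1.25% of library 2 cells, and a cell with these 2 markers alone would not reach 3. The part of this list in the results was not tested. The libraries shared 5, 3 and 19 cell barcodes (library 1 with 2, 1 with 3 and 2 with 3). Library 3 stood apart in a list of 20 early response and heat shock genes, at 58.4 UMIs per cell of 2000 UMIs against 4.73 in library 1 and 6.19 in library 2. This list took 2.98% of all UMIs of library 3, and taking it out of the totals left the summed replication gene ratio of library 2 to library 3 at 1.94. To compare shares of cells at equal depth, each cell was thinned to 2000 UMIs, which kept 408, 3569 and 3284 cells of libraries 1, 2 and 3.

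The promoters of these genes were searched for the element that E2F factors bind. RefSeq windows of 250 bases before to 50 bases after the start (GRCm38.p6) were at hand for 39 of the 47 genes. Searched on both strands were 4 spellings of the E2F element, TTTCCCGC, TTTCGCGC, TTTGCCGC and TTTGGCGC, and the CCAAT box, the element bound by NF-Y. An E2F word lay in the windows of 16 of the 39 genes (41.0%), against 2.61% of all 27025 genes with a window and 4.87% of the 9091 of them with at least 20 UMIs in libraries 2 and 3. In a list of other replication genes it lay in 10 of 34 with a window (29.4%). Of the mitosis genes described below it lay in 1 of 21 (4.76%). CCAAT lay in 64.1% of the 39 genes and 41.1% of all genes with a window. It lay in 43.2% of those with at least 20 UMIs in libraries 2 and 3. The share was 50% in the other replication genes and higher, at 90.5% (19 of 21), in the mitosis genes. A gene was counted if any of its windows held a word, and 5 of the 39 genes had several windows. Windows of 5 genes are printed, 5′ to 3′ on the strand of the gene, with E2F words in capitals. All 5 end before the first base of the gene in GENCODE as well. Mcm5 (chr8:75109259-75109508, plus strand) and Mcm6 (chr1:128359706-128359955, minus strand) are shown because words on opposite strands overlap in them, at 153 and 149 bases before the start in Mcm5 and at 110 and 106 in Mcm6. Dtl (chr1:191575545-191575794, minus strand) and Tyms (chr5:30073626-30073875, minus strand) are among the 5 genes with the highest ratio of library 2 to library 3, and Mcm3 (chr1:20820313-20820562, minus strand) is among the 5 with the lowest.
Mcm5: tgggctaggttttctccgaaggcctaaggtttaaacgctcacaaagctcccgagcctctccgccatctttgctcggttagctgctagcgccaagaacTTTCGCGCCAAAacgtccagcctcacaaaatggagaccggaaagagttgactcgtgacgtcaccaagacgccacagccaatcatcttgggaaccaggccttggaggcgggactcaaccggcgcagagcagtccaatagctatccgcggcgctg
Mcm6: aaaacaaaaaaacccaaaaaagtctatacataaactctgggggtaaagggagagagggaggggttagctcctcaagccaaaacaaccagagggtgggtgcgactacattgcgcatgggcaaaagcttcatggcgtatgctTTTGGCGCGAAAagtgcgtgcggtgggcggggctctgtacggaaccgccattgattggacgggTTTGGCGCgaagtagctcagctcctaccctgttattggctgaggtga
Dtl: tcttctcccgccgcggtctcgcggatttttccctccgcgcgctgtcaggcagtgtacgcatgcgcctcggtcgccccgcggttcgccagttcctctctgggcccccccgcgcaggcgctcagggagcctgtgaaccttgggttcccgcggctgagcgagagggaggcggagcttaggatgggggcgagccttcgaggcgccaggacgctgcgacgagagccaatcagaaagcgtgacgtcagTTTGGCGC
Tyms: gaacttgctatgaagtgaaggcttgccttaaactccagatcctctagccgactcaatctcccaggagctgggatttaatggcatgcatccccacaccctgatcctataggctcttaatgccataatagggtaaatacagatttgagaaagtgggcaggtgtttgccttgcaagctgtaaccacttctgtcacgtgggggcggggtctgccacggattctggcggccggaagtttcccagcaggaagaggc
Mcm3: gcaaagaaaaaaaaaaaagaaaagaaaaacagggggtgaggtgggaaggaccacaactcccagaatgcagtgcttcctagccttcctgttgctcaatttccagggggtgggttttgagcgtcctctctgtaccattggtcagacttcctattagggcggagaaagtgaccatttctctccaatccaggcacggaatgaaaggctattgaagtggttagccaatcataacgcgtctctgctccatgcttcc
Dtl carries 1 word ending at the base before its start, the printed bases of Tyms and Mcm3 hold none, and both words of Mcm3 lie after its start. E2F words lay in 7 of 20 genes (35.0%) with a window that were at least 2-fold higher in library 2 than in library 3. Of the rest, 9 of 19 (47.4%) held a word. Whether the words go with this ratio was not tested. A match describes letters in this window and shows no binding.

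The 47 genes together were highest in library 2. At equal depth a cell of library 1 held on average 1.47 UMIs of them (1.36 to 1.59) out of 2000, a cell of library 2 held 4.04 (3.97 to 4.10) and a cell of library 3 held 2.06 (2.01 to 2.11). Over all UMIs of a library, they came to 707, 2155 and 1081 CPM (counts per 1000000 UMIs), so that library 2 was 3.05 times library 1 (2.86 to 3.25) and 1.99 times library 3 (1.96 to 2.03), and library 3 was 1.53 times library 1 (1.43 to 1.63). All 3 intervals exclude 1.

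A gene was called at a ratio of 2 or more, computed on CPM + 1 for genes with at least 20 UMIs in the libraries compared, and all 47 replication genes had that many. Of these, 39 were called higher in library 2 than in library 1 and none lower, where 7.74% of all 11747 genes compared were called higher and 5.7% lower. Against library 3, 24 of 47 were called higher in library 2 and none lower, with 3.57% and 1.82% of 12283 genes, and all 47 were on the higher side. Library 3 against library 1 gave 18 higher and none lower, with 5.92% and 7.17% of 11366 genes, and 39 of 47 were on the higher side. Short of a call, Rfc1 (0.70, 0.55 to 0.88) and Rpa3 (0.57, 0.38 to 0.88) were lower in library 3 than in library 1, with intervals below 1. The median log2 ratio of the 47 genes was 1.84, 1.02 and 0.81 in these comparisons, beside -0.08, 0.04 and -0.10 over all genes. Orc1, Cdc45 and Mcm10 had no UMI in library 1, where 3 counts (2.23 CPM) are the limit that a count of 0 allows. With those genes set at that limit, 38 were past 2-fold in library 2 and 15 in library 3, and the medians were 1.82 and 0.76. The libraries share cells between these comparisons, so that the comparisons are not independent of each other.

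**Figure D1:**
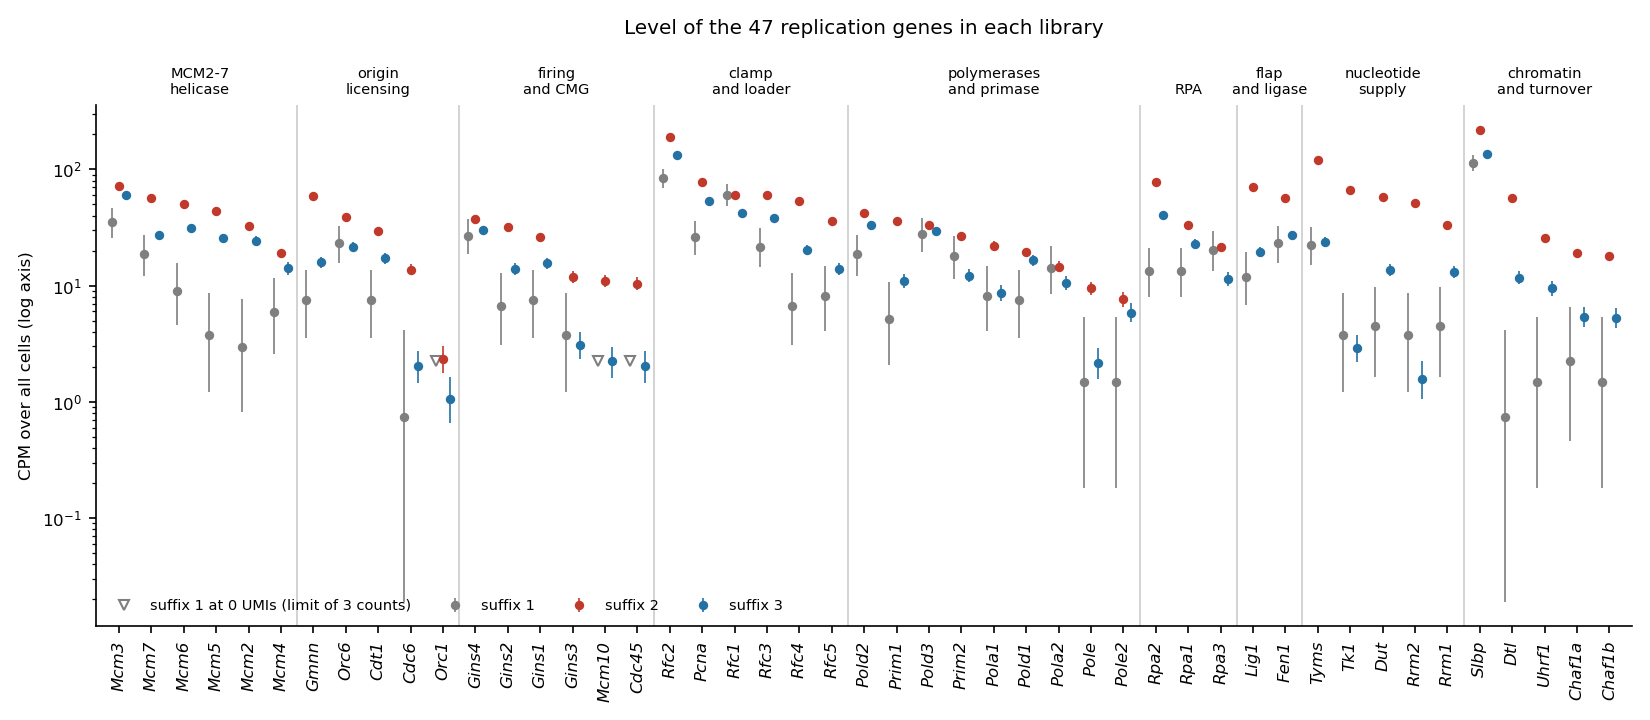
CPM of each of the 47 genes over all cells of library (suffix) 1, 2 and 3, on a log axis and ordered by role and level in library 2. Points are the library values, bars exact 95% Poisson intervals and open triangles the limit of 3 counts for genes at 0 UMIs in library 1. Red points (library 2) lie above blue points (library 3) for all 47 genes.

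The distance between libraries 2 and 3 differed by role. The summed ratio of library 2 to library 3 was 5.95 (5.58 to 6.35) for nucleotide supply, 2.72 for FEN1 and ligase, 2.48 for origin licensing, 2.02 for chromatin and turnover, 1.91 for firing and CMG, 1.76 for RPA, 1.62 for polymerases and primase, 1.58 for the clamp and its loader and 1.51 (1.45 to 1.57) for the MCM2-7 helicase. These sums are weighted to the genes with the most UMIs. In chromatin and turnover, Slbp held 5210 of 8093 UMIs in library 2 and 2655 of 3284 in library 3. Nucleotide supply took 5.47%, 15.2% and 5.09% of the replication gene UMIs of libraries 1, 2 and 3. The MCM2-7 genes took 10.6%, 12.7% and 16.9%. Of all 9 roles, the MCM2-7 genes also had the highest summed ratio of library 3 to library 1, at 2.42 (1.99 to 2.99), while the other 8 roles lay between 1.27 and 1.60. In chromatin and turnover, Slbp held 152 of 160 UMIs of library 1, and the other genes had 1 to 3 each. By the median log2 ratio of its genes, this role (1.34) was near the MCM2-7 genes (1.41).

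Genes that supply deoxynucleotides had the widest gap between libraries 2 and 3, and 5 of 5 were called. Rrm2 encodes the small subunit of ribonucleotide reductase, which makes deoxynucleotides from ribonucleotides, and lies at GRCm38 chr12:24708241-24714146. It was at 3.72 CPM in library 1, 50.8 in library 2 and 1.57 in library 3 (5, 1225 and 31 UMIs), and library 2 was 32.4 times library 3 (22.7 to 47.9). Tk1 encodes thymidine kinase 1, the salvage enzyme for thymidine, at chr11:117815526-117826092. It was at 3.72, 66.7 and 2.88 CPM (5, 1607 and 57 UMIs), 23.1 times higher in library 2 than in library 3 (17.8 to 30.7). For both genes libraries 1 and 3 could not be separated, with ratios of library 3 to library 1 of 0.42 (0.16 to 1.39) for Rrm2 and 0.77 (0.31 to 2.48) for Tk1. Of the 5 Rrm2 UMIs of library 1, 4 were in 1 cell, the one richest in mitosis genes, and without it the Rrm2 ratio on CPM + 1 turned from -0.88 to 0.56 (log2). Tyms, thymidylate synthase, was at 22.3, 119 and 23.9 CPM and 4.98 times higher in library 2 than in library 3 (4.52 to 5.51). Dut, the dUTPase that keeps uracil out of DNA, was at 4.47, 58.0 and 13.6 CPM, a ratio of 4.28 (3.75 to 4.90). Rrm1, the large subunit that pairs with Rrm2, had a ratio of 2.51 (2.18 to 2.90), and its interval lay far below that of Rrm2.

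Origin licensing genes split in the same comparison, with 2 of 5 called. Cdc6 (chr11:98907801-98923940), the loader of the helicase, was at 0.74 CPM in library 1 (1 UMI), 13.7 in library 2 and 2.02 in library 3, 6.75 times higher in library 2 than in library 3 (4.85 to 9.62). Gmnn was at 7.45, 58.5 and 15.8 CPM, a ratio of 3.70 (3.27 to 4.19). Its target Cdt1 had a ratio of 1.70 (1.49 to 1.94), so that the intervals of inhibitor and target do not overlap. Orc6, a subunit of the origin recognition complex, was at 23.1, 38.9 and 21.4 CPM. The ratio of library 2 to library 3 was 1.82 (1.62 to 2.04), and libraries 1 and 3 could not be separated. Orc1, the least counted of the 47 genes, had 0, 56 and 21 UMIs, a ratio of 2.19 (1.3 to 3.8) that fell short of the call once 1 CPM was added to both sides.

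The MCM2-7 helicase genes were all higher in library 2 than in library 1 (6 of 6 called), and 1 of 6 was called against library 3. Mcm3 was at 35.0 CPM in library 1, 72.0 in library 2 and 59.9 in library 3, with a ratio of library 2 to library 3 of 1.20 (1.11 to 1.29). Mcm7 was at 18.6, 56.3 and 27.2 CPM and its ratio was 2.07 (1.87 to 2.29), the highest of the 6. The ratios of Mcm2 (1.35), Mcm4 (1.34), Mcm5 (1.72) and Mcm6 (1.61) lay between these. Mcm2 and Mcm5 were rare in library 1, with 4 and 5 UMIs, and each was higher in library 3, 8.14 times (3.16 to 30.0) for Mcm2 and 6.83 times (2.91 to 21.1) for Mcm5.

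Among genes of origin firing and of the CMG helicase, 4 of 6 were called higher in library 2 than in library 3. Cdc45 and Mcm10, which act when the helicase is switched on, had ratios of 5.15 (3.68 to 7.38) and 4.94 (3.58 to 6.96). Neither had a UMI in library 1. With library 1 set at the limit of 3 counts, library 2 was 4.66 times (Cdc45) and 4.92 times (Mcm10) library 1. The lower ends of the exact intervals were 3.76 and 3.98. The GINS genes, whose proteins form 1 complex, differed among themselves. Gins2 was at 6.70, 31.8 and 14.0 CPM, a ratio of library 2 to library 3 of 2.27 (1.97 to 2.61), and Gins3 had a ratio of 3.83 (2.90 to 5.14) against 1.67 (1.46 to 1.92) for Gins1. Gins4 was at 26.8, 37.3 and 30.3 CPM, a ratio of 1.23 (1.11 to 1.37), and the interval of its ratio of library 2 to library 1 reached from 0.997 to 2.0.

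The clamp and its loader had 2 of 6 genes called against library 3. Pcna was at 26.1, 77.8 and 53.3 CPM and 1.46 times higher in library 2 than in library 3 (1.35 to 1.57). Rfc2, a loader subunit, was at 84.1, 190.1 and 133.8 CPM, a ratio of 1.42 (1.35 to 1.49). Rfc4 and Rfc5 were called, both with a ratio of 2.61, while Rfc3 had 1.57 and Rfc1 1.43. Rfc1, the large subunit, did not differ between libraries 1 and 2 beyond counting error (60.3 and 60.0 CPM, a ratio of 0.995, 0.80 to 1.26).

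Polymerase and primase genes were called in 4 of 9 cases, and the split ran through the enzymes. All 3 polymerase delta genes among the 47 had ratios of library 2 to library 3 among the 5 lowest. Pold1, the catalytic subunit, was at 7.45, 19.3 and 16.6 CPM, a ratio of 1.17 (1.01 to 1.35). Pold2 was at 18.6, 41.9 and 33.3 CPM, a ratio of 1.26 (1.14 to 1.39), and Pold3 was at 27.5, 33.5 and 29.7 CPM, a ratio of 1.13 (1.01 to 1.26). In contrast, Pole, the catalytic subunit of polymerase epsilon, had a ratio of 4.35 (3.13 to 6.18), and its partner Pole2 of 1.31 (1.03 to 1.66). Within the polymerase alpha and primase complex, Prim1 (3.25), Pola1 (2.56) and Prim2 (2.21) were called and Pola2 (1.38) was not.

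RPA genes were not called between libraries 2 and 3 (0 of 3). Rpa2 was at 13.4, 77.3 and 40.7 CPM, a ratio of 1.90 (1.75 to 2.07), and Rpa1 was at 13.4, 32.9 and 23 CPM, a ratio of 1.43 (1.28 to 1.61). Rpa3 had a ratio of 1.89. The ratio of library 2 to library 1 ranged in this complex from 1.07 (0.73 to 1.64) for Rpa3 to 5.77 (3.64 to 9.75) for Rpa2.

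Both genes that finish the lagging strand were called in library 2 against both other libraries. Lig1 was at 11.9, 70.0 and 19.4 CPM and 3.61 times higher in library 2 than in library 3 (3.23 to 4.04). Fen1 was at 23.1, 56.3 and 27.1 CPM, a ratio of 2.08 (1.88 to 2.30). Libraries 1 and 3 could not be separated for either gene.

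Chromatin and turnover genes had 4 of 5 called. Dtl encodes the adaptor by which a ubiquitin ligase removes CDT1 at PCNA on DNA and lies at chr1:191537356-191575544. It had 1 UMI in library 1, 1376 in library 2 and 231 in library 3, or 0.74, 57.1 and 11.7 CPM, and its ratio of library 2 to library 3 was 4.89 (4.25 to 5.64). Uhrf1, which brings the maintenance DNA methyltransferase to new DNA, had a ratio of 2.73, and the chromatin assembly factor genes Chaf1a and Chaf1b had ratios of 3.53 and 3.35. Slbp, which binds the stem loop of histone mRNAs and had the most UMIs of the 47 genes, was at 113, 216 and 134 CPM, a ratio of 1.61 (1.54 to 1.69) to library 3 and 1.91 (1.63 to 2.26) to library 1, and was not called in either.

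**Figure D2:**
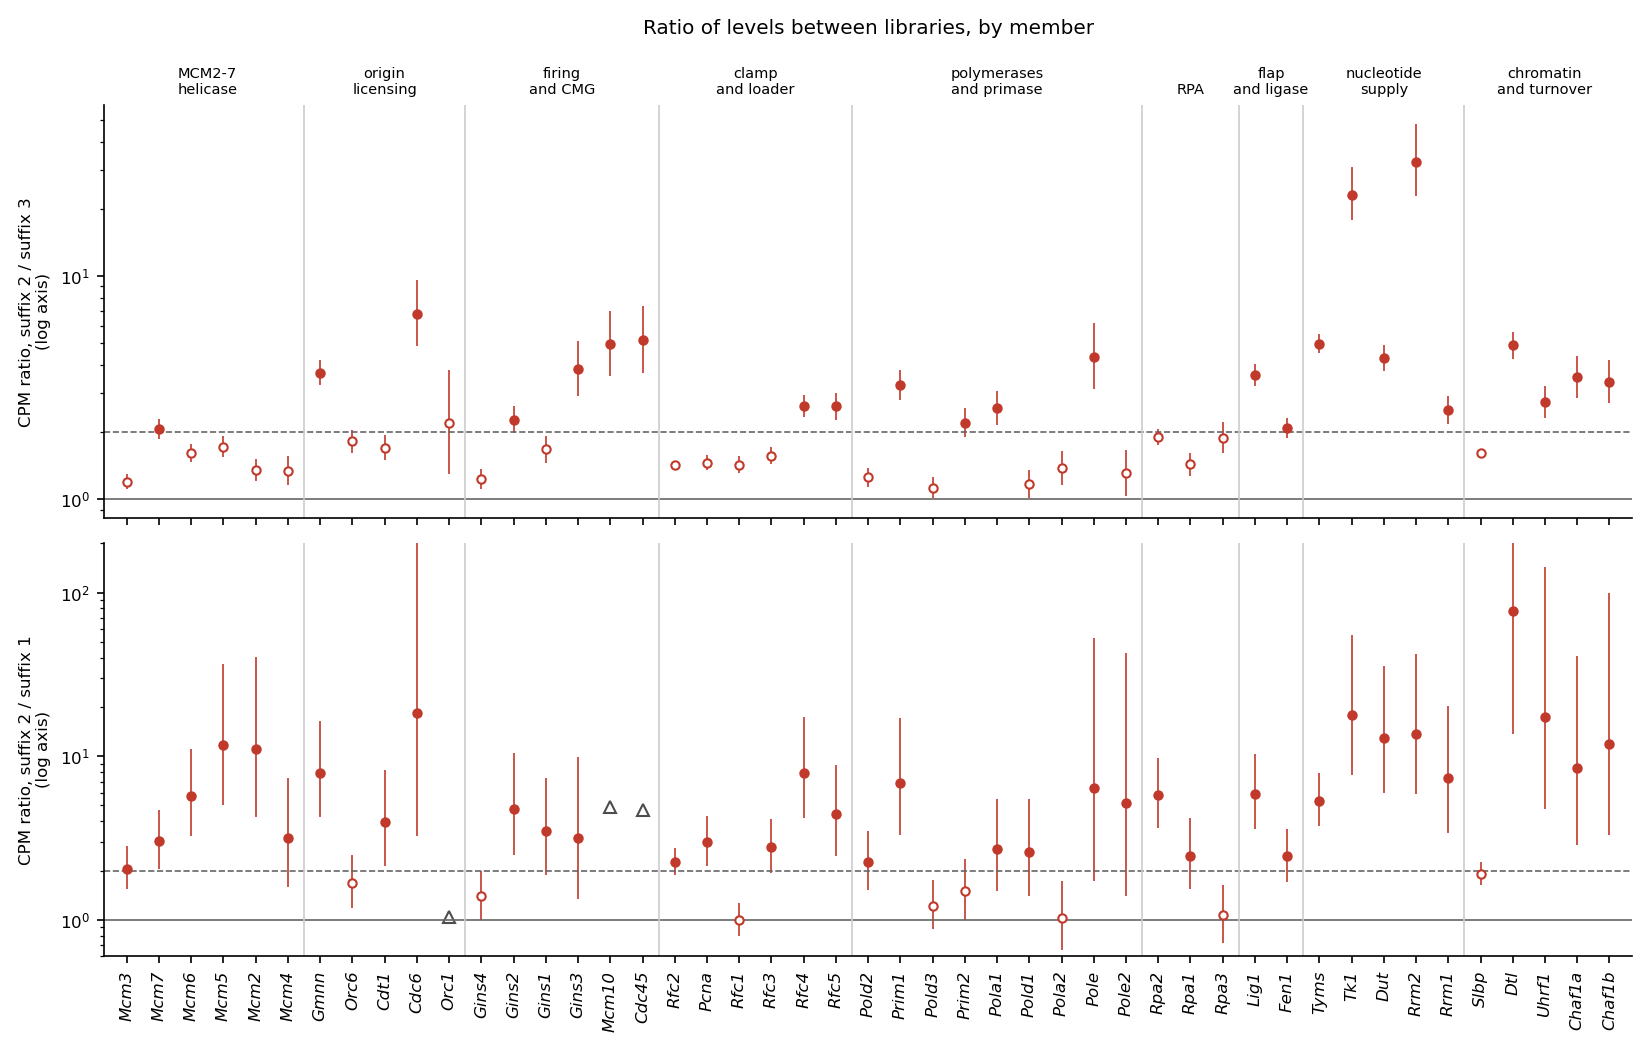
Ratio of CPM of library (suffix) 2 to library 3 (upper panel) and of library 2 to library 1 (lower panel) for each gene, on log axes with exact 95% intervals. The dashed line marks 2-fold and filled points were called on CPM + 1. Triangles are ratios with library 1 set at the limit of 3 counts, for genes at 0 UMIs there. In the upper panel Rrm2 (32.4) and Tk1 (23.1) stand apart and no point is below 1, and in the lower panel the upper bounds of Cdc6 and Dtl, with 1 UMI each in library 1, run past the axis.

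Other genes that act at replication forks were nearer to equal between the libraries. Of a list of 44 other replication genes, 16 were called higher in library 2 than in library 3 and none lower, 26 higher than in library 1 and none lower, and the summed ratios were 1.36 (1.34 to 1.38) and 1.94 (1.84 to 2.05). Among the highest ratios of library 2 to library 3 was that of Asf1b, a histone chaperone (68.1 against 7.18 CPM, 9.49), and the lowest were those of Orc3 (0.79, 0.69 to 0.91) and Orc4 (0.77, 0.69 to 0.86), subunits of the origin recognition complex. A list of 14 E2F and replication kinase genes had 7 called higher in library 2 than in library 3 and none lower, with a summed ratio of 2.06 (1.98 to 2.14). Between libraries 3 and 1 its ratio was 1.14 (0.99 to 1.32), below the 1.53 of the 47 genes.

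Mitosis genes differed more between library 2 and the other libraries than the replication genes did. The summed level of 24 such genes was 42.4 CPM in library 1, 1129 in library 2 and 34.9 in library 3, 26.6 times higher in library 2 than in library 1 (20.5 to 35.1) and 32.4 times higher than in library 3 (30.0 to 34.9). All 24 were called in both comparisons. Mki67, Top2a and Cdk1 were 53.3, 33.6 and 11.5 times higher in library 2 than in library 3. Libraries 1 and 3 could not be ordered by this list. Library 3 was at 0.82 times library 1 (0.63 to 1.10), but 1 cell held 26 of the 57 mitosis UMIs of library 1, and without it library 1 was at 23.2 CPM, library 3 was at 1.51 times library 1 (1.05 to 2.24) and library 2 at 48.8 times (34.3 to 71.8). The replication genes summed to 1.53 times library 1 in library 3 with this cell and 1.58 times without it. Among the 47 genes, Rrm2 and Tk1 had the ratios of library 2 to library 3 nearest to that of this list, 32.4 and 23.1.

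Counted per cell, replication genes were spread over most cells of library 2. At 2000 UMIs, 3 or more of the 47 genes were found in 15.2% of library 1 cells (11.9 to 19.1), 65.7% of library 2 cells (64.1 to 67.3) and 29.2% of library 3 cells (27.7 to 30.8). None of them was found in 25.7%, 3.53% and 14.2%. Cells with 5 or more came to 1.47%, 29.3% and 5.57%, and cells with 8 or more to 1 of 408, 269 of 3569 and 12 of 3284. All cells were microglia by their markers, so no cell type without replication genes was at hand to measure free RNA, and its part in these shares was not tested. Without thinning, the share with 3 or more was 18.2%, 97.7% and 82.5%, which moves with depth.

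**Figure D3:**
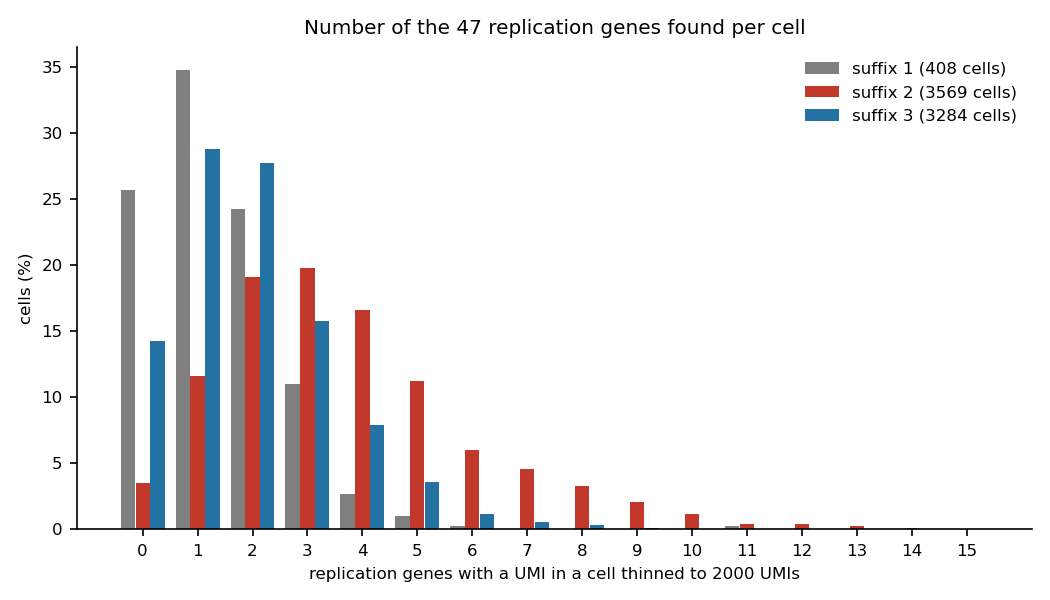
Share of cells (%) by the number of the 47 genes with a UMI, in cells thinned to 2000 UMIs, for library (suffix) 1, 2 and 3. Library 2 reaches up to 15 genes per cell with a median of 3, library 3 up to 10 with a median of 2, and library 1 has a median of 1 and a lone cell with 11.

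If the genes were found in cells independently of each other, the number found per cell would vary less than it did. The variance of this number was 1.21 times that of independent genes in library 1, 1.69 times in library 2 and 1.20 times in library 3. The value of library 1 includes the lone cell with 11 of the genes, where no other of its 408 cells had more than 6. It was not recomputed without that cell and is not set beside that of library 3. The mean number found was 3.69 in library 2 and 1.94 in library 3, and the variance ratios were not matched for it. Pairs of the 47 genes were found in the same cell 1.17 times as often as their shares predict in library 2 (27327 against 23399 pairs) and 1.10 times in library 3. In library 2 the factor was the same for pairs of 1 role and pairs of different roles (1.17 for both). Nucleotide supply had 1.25 there. In library 3 the MCM2-7 genes had 1.31 (178 against 136 pairs), flap and ligase had 2.15 from 10 pairs of Lig1 and Fen1, and nucleotide supply had 0.82 from 11 pairs. Variance ratios and pair counts were not computed for other genes, so they cannot be set against a background.

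Gene by gene, cells with 5 or more of the other 46 genes were set against cells with 0 or 1 of them. In library 2, 46 of 47 genes were found more often in the first cells, 22 of them with intervals that did not overlap, and the median ratio of the shares was 1.67. With 0 or 1 and with 5 or more other genes, Slbp was found in 27.7% and 43.7% of cells, Tyms in 15.4% and 25.8%, Pcna in 8.92% and 20.1% and Dtl in 6.62% and 15.1%. Intervals overlapped for every gene not among the 22, including Mcm2, Mcm4, Mcm5 and Mcm6 of the helicase and all 3 polymerase delta genes. Mcm10 was the exception in direction, at 2.54% and 2.41%. In library 3, 34 of 47 genes were found more often, 6 beyond the intervals, with a median ratio of 1.5. The 6 were Mcm2 (3.53% and 9.30%), Mcm5 (4.32% and 9.70%), Gmnn (2.43% and 8.72%), Prim1 (1.33% and 5.59%), Lig1 (2.43% and 7.51%) and Dtl (1.27% and 5.68%). Tk1 was at 0.35% and 0.55% and Rrm2 at 0.21% and 1.10%, from 13 and 9 cells of library 3 in all. The same counts were not made over all genes. Those of the 47 genes, also in the depth range below, therefore cannot be set against a background.

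Deposited depth moved with the number of genes found even after thinning. The median was 5639 UMIs in cells of library 2 with 0 or 1 of the 47 genes and 7286 in cells with 5 or more, and 5620 and 6452 in library 3. Within cells of 4000 to 8000 deposited UMIs, 45 of 47 genes in library 2 and 32 in library 3 were still found more often beside 5 or more others, but the number beyond the intervals was 9 and 3 and the median ratio 1.48 and 1.37. Median depth still differed within this range, at 5612 and 6008 UMIs in library 2 and 5654.5 and 5970 in library 3. Droplets with more than 1 cell were not removed here, and their part was not tested.

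**Figure D4:**
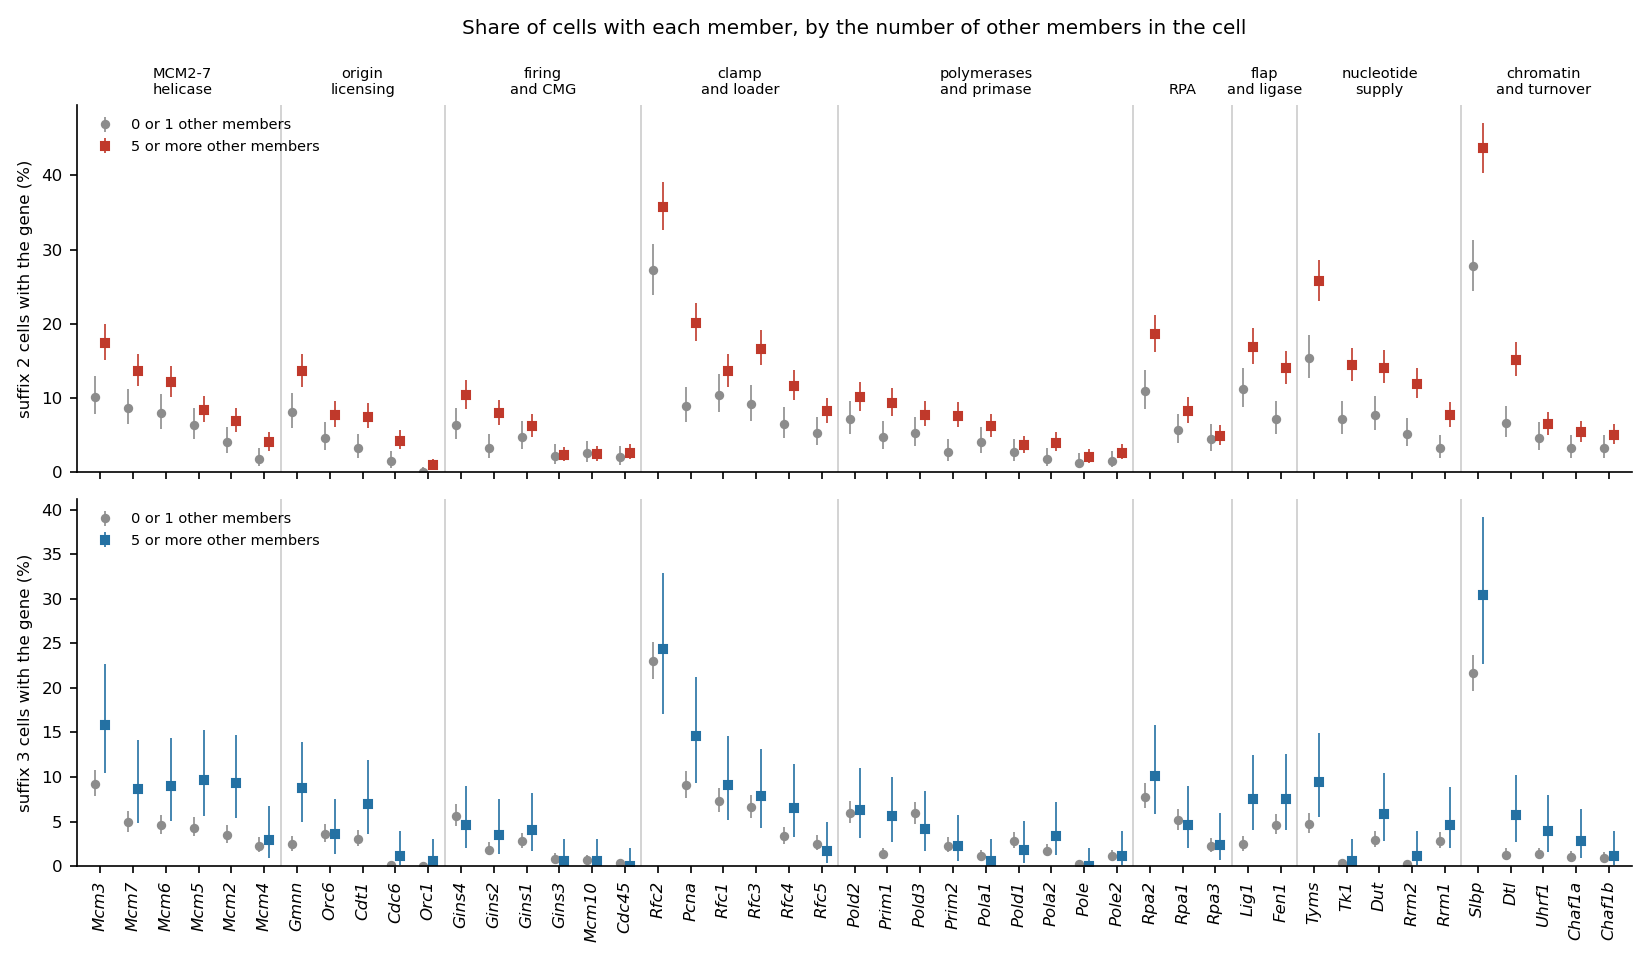
Share of cells (%) with a UMI of each gene among cells with 0 or 1 (grey) and with 5 or more (coloured) of the other 46 genes, for library (suffix) 2 (upper panel) and 3 (lower panel), with exact 95% binomial intervals. In library 2 the coloured point lies higher for 46 of 47 genes, in library 3 for 34. The same count was not made over all genes.

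In library 3 most cells with replication genes had no UMI of a mitosis gene. At equal depth a UMI of the 24 mitosis genes was found in 80.6% of cells with 3 or more replication genes in library 2 (78.9 to 82.1) and in 5.63% of such cells in library 3 (4.26 to 7.28). In cells with none of the 47 genes the shares were 77.8% (69.5 to 84.7) and 6.21% (4.20 to 8.80). With 1 or 2 replication genes they were 73.0% (70.2 to 75.6) and 3.82%, and in library 2 the share was 91.8% (87.9 to 94.8) in cells with 8 or more. Cells with none and with 3 or more of the genes thus had overlapping intervals in both libraries at this depth, while in library 2 the interval of cells with 1 or 2 lay below that of cells with 3 or more. The part of free RNA was not tested. With at least 6 mitosis UMIs, the share in library 2 was 1.59% of cells with no replication gene, 2.09% with 1 or 2, 7.97% with 3 or more and 20.1% with 8 or more. In library 3, 3 of 959 cells with 3 or more replication genes had as many, and 0 of 2325 with fewer, which allows a share of up to 0.129%.

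Within library 2, the 47 genes were compared between 212 cells with 6 or more mitosis UMIs and 781 cells with none. All 47 were found more often in the former, 15 beyond the intervals, with a median ratio of 1.84. These counts, and those by depth below, were not made over all genes and cannot be set against a background. Rrm2 had the widest difference, from 5.25% (3.79 to 7.05) to 26.9% (21 to 33.4) of cells. Rrm1 went from 3.20% to 13.7%, Tk1 from 8.96% to 24.5% and Fen1 from 7.68% to 21.7%. Every gene not among the 15 had overlapping intervals, including Mcm3 (12.3% and 16.5%), Mcm6 (9.60% and 10.8%) and Pold1 (3.46% and 4.25%). Of the helicase genes only Mcm7 was past its interval (8.07% and 17.5%). The share of Rrm2 was 5.16% in cells with 1 or 2 mitosis UMIs and 11.1% with 3 to 5. The 212 cells had a median of 9559 deposited UMIs against 5743. Within 4000 to 8000 deposited UMIs 46 and 574 such cells were left, and 37 of 47 genes were found more often, 9 beyond the intervals, with a median ratio of 2.05. Depth was not matched within this range, where the medians were still 7227 and 5712 deposited UMIs.

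**Figure D5:**
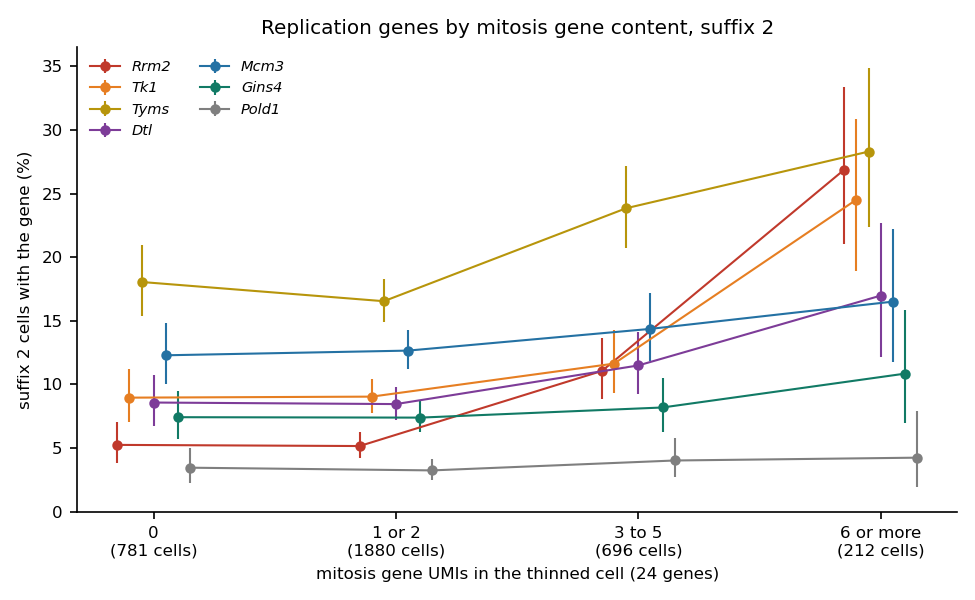
Share of cells of library 2 (%) with a UMI of each of 7 replication genes, by the number of mitosis gene UMIs in the thinned cell, with exact 95% binomial intervals. Rrm2 and Tk1 are at 26.9% and 24.5% in cells with 6 or more mitosis UMIs, from 5.25% and 8.96% with none, while Pold1 is at 4.25% and 3.46%.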

How the data were processed

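YFP (+) microglia of the lumbar cord were sequenced with a 10x Genomics 3′ kit, 1 library for each of the naive, 24 h and 48 h groups. The authors deposited the raw UMI count of each gene in each cell as 1 matrix that joins the libraries, and the submitters' processing notes list Cell Ranger 2.1.1 and mm10. Neither the calling of cells nor any down-sampling at joining is described in the sources at hand. The methods state doublet exclusion in the sort. No doublet caller and no filter on cells was applied.

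From the counts, CPM, ratios of 2 libraries with exact conditional binomial intervals, and shares of cells thinned without replacement to 2000 UMIs (seed 1) were computed in Python 3.11.15 (numpy 2.4.6, scipy 1.17.1, pandas 2.3.3, matplotlib 3.10.9). Calls needed a ratio of 2 on CPM + 1 and 20 UMIs. The ratio and thinning steps were tested on simulated data. A count of 0 allows 3 counts. Cells are not replicates, so nothing was tested for significance.

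The genes and lists were chosen with earlier results of these data known. In each role the 2 genes with the most UMIs were described in full, with the 5 highest and 5 lowest ratios of library 2 to library 3, and of other lists Mki67, Top2a, Cdk1 and the extremes of the other replication genes, of which 1 is not reported here. The groups of cells by other genes or mitosis UMIs, the depth range of 4000 to 8000 UMIs, the E2F and CCAAT words and the printed promoters were chosen after values were seen. Positions are from GENCODE M21 (GRCm38) by Ensembl identifier, found for 47 of 47 genes, and promoters from RefSeq. Mcm7, Pole2 and Rpa1 overlap other genes on their strand, none of which is in the matrix. The strand setting of the counting is not stated. Alternatives were other depths, seeds, cell filters, scalings, pseudocounts and thresholds.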

Additional observations from a re-analysis of the deposited data

How the results depend on the processing

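With 1 library per suffix, precision rests on UMIs, which are fewest in library 1. No paired analysis was possible because each group has 1 library and no suffix is tied to a group. Of 143 recomputed summary values 94 stayed within the main interval or within 1.5 times the main count, and 1 passed from below to above 1, the mitosis ratio of library 3 to 1, which was 1.51 without 1 cell of library 1 (chosen after seeing the data), where that of library 2 to 1 was 48.8. For single genes 580 of 649 ratios stayed within their intervals and no called gene changed sign. Scaling to the median gene, whose ratio was -0.12 (log2) for library 2 to 1 and -0.11 for library 3 to 1, gave summed ratios of 3.30 for library 2 to 1, 1.96 for library 2 to 3 and 1.65 for library 3 to 1, cells thinned to 2000 UMIs gave 2.74, 1.96 and 1.40, and the median gene of the 47 gave 3.59, 2.03 and 1.75. Without Slbp the ratio was 3.26 for library 2 to 1 and 2.05 for library 2 to 3, and without early response and heat shock genes in the totals (chosen after seeing the data) it was 1.94 for library 2 to 3. For library 3 against 1, a threshold of 1.5-fold called 31 genes higher and 2 lower, and a pseudocount of 5 CPM called 7 higher, against 18 and 0. The shares over all genes were not computed at these settings, so these counts cannot be set against a background. Scaled to 2000 UMIs, cells held on average 1.33 UMIs of the 47 genes in library 1 with thinning to 1000. On the same scale cells held 4.31 and 2.16 in libraries 2 and 3 without thinning, and 1.25, 3.62 and 1.80 in libraries 1, 2 and 3 without Slbp. The share of cells with 3 or more genes in libraries 1, 2 and 3 was 2.91%, 29.7% and 7.50% at 1000 UMIs, 26.1%, 86.1% and 51.8% at 3000, 11.5%, 60.2% and 23.7% without Slbp, 1.47%, 29.3% and 5.57% for 5 or more genes and 0%, 0.98% and 0.030% for genes with at least 2 UMIs, and without thinning 97.7% and 82.5% in libraries 2 and 3. The share of cells with a mitosis UMI, among cells with 3 or more and with none of the 47 genes, was 62.6% and 50.9% in library 2 at 1000 UMIs and 97.7% and 85.7% without thinning, 14.2% and 10.3% in library 3 without thinning, and 2.03% in library 3 cells with none at 1000 UMIs. In library 2 the intervals of these cells did not overlap at 1000 UMIs. In cells with 5 or more of the genes it was 83.9% in library 2 and 10.9% in library 3. Library 2 stayed above library 3 and library 3 above library 1 in the summed level and in the share of cells with 3 or more genes under every alternative run. For genes with at least 2 UMIs, libraries 3 and 1 (0.030% and 0%) could not be separated beyond counting error. The depth range of 4000 to 8000 UMIs, chosen after seeing the data, changed the counts beyond intervals as given beside them.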

Other observations

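Cells with at least 3 mitosis UMIs after thinning were rare outside library 2, with 2 in library 1 and 5 in library 3, and are listed here because they were chosen by values of these data. The cell of library 1 with 17 mitosis UMIs, of 4383 deposited UMIs, held 11 of the 47 replication genes (Mcm7, Orc6, Gmnn, Gins4, Rfc3, Pold1, Fen1, Rrm1, Rrm2, Tyms and Slbp). The other held Mcm3 and Gins3 with 3 mitosis UMIs. In library 3 the cells with 10, 8 and 6 mitosis UMIs held 7, 6 and 5 of the genes and had 10358, 9054 and 8313 deposited UMIs, against a median of 5742 in that library. The first held Mcm2, Mcm5, Mcm6, Pcna, Rpa1, Tyms and Dtl, and the second Mcm3, Gmnn, Pcna, Pold3, Rrm2 and Tyms. The remaining 2 cells held 3 and 6 of the genes with 3 mitosis UMIs each, and 1 of them shares its barcode with a cell of another library.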
